A study of Homo sapiens with 18 samples.

Results

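LNCaP is a human prostate cancer cell line that grows in response to androgen. Of the 18 RNA Seq libraries of the series, the 6 described here were LNCaP cells carrying a scrambled, non-targeting siRNA (siScr). 3 libraries came from cells given vehicle and 3 from cells given 1 nm R1881 (methyltrienolone), a synthetic androgen, for 72 h. They were chosen by their titles alone, and no measured value entered the choice. All 6 cultures were transfected and were kept in phenol red-free medium with hormone-depleted serum, so the comparison is of androgen added back against hormone-poor medium, in siRNA-treated cells of 1 line. Both DMSO (for RNA Seq) and ethanol (for cell culture) are given as vehicle in the methods, and the labels do not settle which was used.

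Androgens are steroid hormones that enter cells and act on transcription. The hormone response reaches DNA at androgen response elements, beside pioneer factors such as FOXA1 that open chromatin, and draws in co-activators or co-repressors. In the luminal cells of the prostate, androgen drives secretion of kallikrein proteases and a high rate of lipid synthesis, and it also lowers the expression of a set of genes.

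The libraries held 10485096 to 20154243 counts assigned to genes. Markers of luminal prostate epithelium were present in every library, while the 8 leukocyte markers had at most 13 counts in any library and did not reach the filter for testing. The highest was ITGAM, with 0 counts in each vehicle library and 13, 10 and 9 with R1881. Of the 8 basal epithelium markers, TP63 had at most 2 counts and KRT5 at most 3 in a library. Others were present: DST had 274 to 600 counts, ITGB4 9 to 62, and KRT15 29 to 34 with R1881 only. Among 9 fibroblast and muscle markers, COL1A1 had 95 to 379 counts, ACTA2 19 to 117 and COL3A1 8 to 79. DES had 0 counts in every library. Vehicle replicate 1 stood apart: it was the shallowest library, and pseudogenes took 1.19% of its counts, against 0.683% and 0.632% in vehicle replicates 2 and 3 and 0.557% to 0.575% with R1881. The group difference in this share could not pass a threshold of 0.05 (exact two-sided permutation test, p = 0.1, the smallest that 3 against 3 libraries allow), so calls were also made without vehicle replicate 1.

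R1881 moved genes in both directions in similar numbers. Of 17162 genes tested, 4025 (23.5%) were higher with R1881 and 3977 (23.2%) were lower at an adjusted p under 0.05. Counts of higher and lower genes in the lists below are to be read beside these shares. Genes that also had a log2 fold change (log2FC) of 1 or more in size are termed called here: 974 genes (5.68%) were up-regulated and 1136 (6.62%) were down-regulated. The values of the 2 groups did not overlap in 9155 of all genes tested (53.3%) and in 2022 of the 2110 called genes, which were chosen by the same values. The median log2FC of all genes tested was -0.04. Up-regulated genes took 3.17% of all counts in the vehicle libraries and 10.2% with R1881, while down-regulated genes took 2.86% and 0.809%. These are relative amounts of RNA in bulk cultures, in which fewer cells of a kind and less RNA per cell cannot be told apart. Without vehicle replicate 1, 94.6% of the up-regulated and 81.7% of the down-regulated genes were still called.

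**Figure D1:**
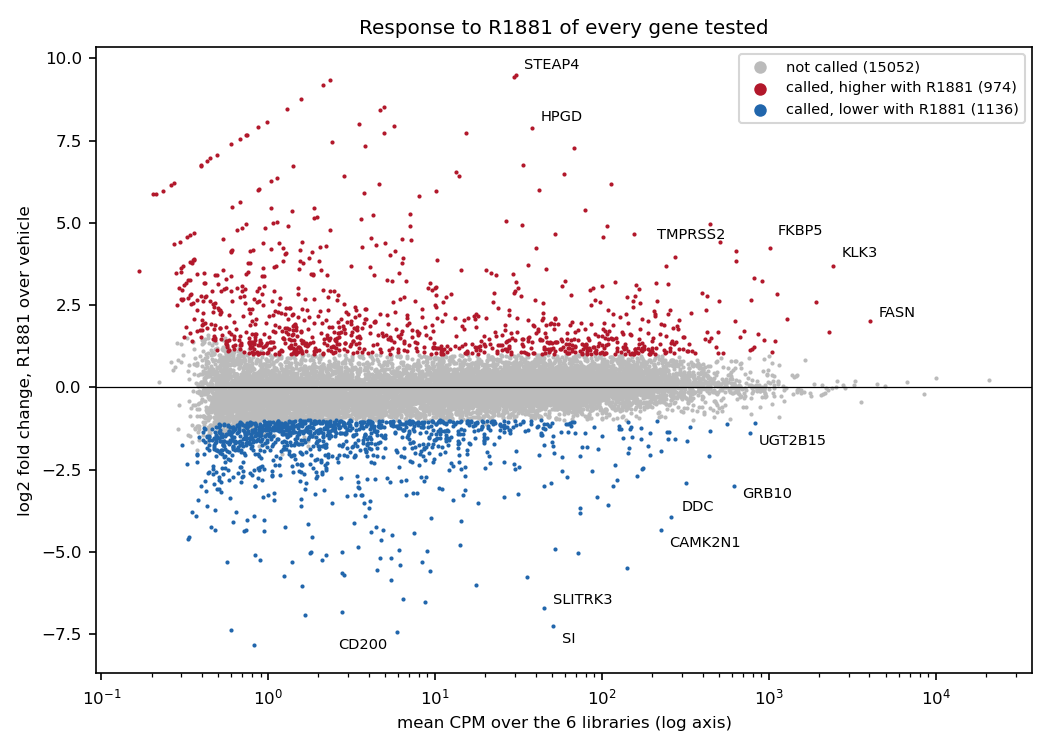
Each point is 1 of the 17162 genes tested: the horizontal axis (log scale) is its mean level over the 6 libraries in CPM, a count scaled to a common library size, and the vertical axis is its log2FC with R1881 over vehicle. Red points are the 974 genes called higher and blue points the 1136 called lower. The abundant lipid and kallikrein genes lie at the upper right and GRB10 and UGT2B15 at the lower right.

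Genes listed as androgen-induced were higher throughout. All 30 passed the test upwards and 29 were called, with a median log2FC of 3.16, while 23.5% of all genes tested were higher. The list was chosen with earlier results of these data known, so its count is a description and not separate support. Levels of single genes are given as CPM, the count per library scaled to a common library size, in the order of replicates 1, 2 and 3. KLK3, which encodes prostate-specific antigen, stood at 366, 333 and 341 CPM with vehicle and at 4438, 4371 and 4701 CPM with R1881 (log2FC 3.70 ± 0.07 SE, adjusted p = 6.13e-17). TMPRSS2, a membrane serine protease whose promoter is fused to ETS genes in many prostate tumours, stood at 70.3, 65.4 and 69.2 CPM with vehicle and at 1176, 1139 and 1277 CPM with R1881 (log2FC 4.13 ± 0.07 SE). No vehicle library reached the level of any R1881 library in either gene. FKBP5, a co-chaperone of steroid receptors, went from 99.3, 105 and 101 CPM to 1802, 2004 and 1949 CPM, a log2FC of 4.24 ± 0.06 SE. The smallest response on the list was that of ACPP, prostatic acid phosphatase, with a log2FC of 0.79.

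The kallikreins are secreted serine proteases encoded side by side on chromosome 19. Of 15 listed, 4 were expressed enough to be tested and all 4 were called higher. KLK2 stood at 29.6, 27.1 and 27.0 CPM with vehicle and at 846, 805 and 930 CPM with R1881 (log2FC 4.95 ± 0.08 SE), a larger fold than that of its close relative KLK3. KLK4 had a log2FC of 1.44 and KLK15 one of 1.32. KLK2 and KLK3 are alike in sequence, so how some reads were shared between them is uncertain.

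The promoters of KLK3 and KLK2 are shown because both genes were strongly induced and carry the same letters of an androgen response element. The sequences are the 250 bases before the RefSeq start (GRCh38.p14, plus strand, chr19:50854665-50854914 for KLK3 and chr19:50873189-50873438 for KLK2), with GAACA, any 3 bases and AGTGCT in capitals, together with the shorter motif AGAACA where present.
KLK3: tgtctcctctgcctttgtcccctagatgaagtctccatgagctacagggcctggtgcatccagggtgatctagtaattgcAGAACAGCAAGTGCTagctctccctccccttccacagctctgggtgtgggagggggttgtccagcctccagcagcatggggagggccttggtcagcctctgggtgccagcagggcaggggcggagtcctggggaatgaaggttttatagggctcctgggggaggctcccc
KLK2: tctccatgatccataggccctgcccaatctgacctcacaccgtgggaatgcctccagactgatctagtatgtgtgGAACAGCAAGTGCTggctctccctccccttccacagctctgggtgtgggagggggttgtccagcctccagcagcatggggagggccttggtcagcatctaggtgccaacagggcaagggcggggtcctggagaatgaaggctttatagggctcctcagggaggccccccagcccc

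Read on both strands, GAACA followed by any 3 bases and AGTGCT was in 12 of 27305 promoters (0.0439%) and in 4 of the 10984 that matched a gene tested, of which 2 were called higher and none lower. The 2 are KLK3 and KLK2, which follows from the choice of letters, since they were taken from the KLK3 promoter without the first base of its element. AGAACA alone was in 12.4% of all promoters, in 7.56% of those of genes tested, in 9.12% of the 592 matched promoters of called higher genes and in 10.1% of the 533 of called lower genes. The palindrome of GNACA, any 3 bases and TGTNC can overlap AGAACA. It was in 0.33% of all promoters and in 16 of the 10984 of genes tested (0.146%). Among called genes it was in 2 of the 592 higher (0.338%), LINC00844 and EXOC6, and in 1 of the 533 lower (0.188%), GATA2. A match is a description of the letters in this window and not a site of binding. LINC00844, a long noncoding RNA found in prostate, and GATA2, a pioneer factor, are shown with the palindrome and any AGAACA in capitals (chr10:58999268-58999517, plus strand, and chr3:128493202-128493451, minus strand).
LINC00844: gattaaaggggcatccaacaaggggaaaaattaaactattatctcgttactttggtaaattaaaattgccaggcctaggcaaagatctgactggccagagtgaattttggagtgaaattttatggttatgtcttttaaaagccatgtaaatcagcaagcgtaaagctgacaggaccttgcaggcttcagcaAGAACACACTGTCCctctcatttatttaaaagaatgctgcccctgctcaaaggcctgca
GATA2: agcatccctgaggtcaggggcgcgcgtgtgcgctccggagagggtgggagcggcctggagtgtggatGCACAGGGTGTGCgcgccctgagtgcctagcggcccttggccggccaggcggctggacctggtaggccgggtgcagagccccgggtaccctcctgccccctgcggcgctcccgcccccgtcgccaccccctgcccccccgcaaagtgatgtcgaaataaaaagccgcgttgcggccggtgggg

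LINC00844 had 0, 0.139 and 0 CPM with vehicle and 2.41, 3.46 and 2.28 CPM with R1881. GATA2 had 273, 208 and 238 CPM with vehicle and 105, 98.4 and 102 CPM with R1881 (log2FC -1.24 ± 0.08 SE, adjusted p = 1.07e-09).

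The 12 genes with the largest increases were nearly silent without androgen. STEAP4, a metalloreductase of the plasma membrane, had 0.089, 0.139 and 0 CPM with vehicle and 58.7, 66.9 and 57.6 CPM with R1881. CCDC141, a coiled-coil protein, had 0, 0.186 and 0 CPM against 58.7, 63.4 and 54.7 CPM. Each went from 4 counts over the vehicle libraries to 3009 and 2910, with log2FC of 9.48 for STEAP4 and 9.43 for CCDC141. HPGD, which breaks down prostaglandins, rose from 0.356, 0.371 and 0.219 CPM to 69.7, 84.5 and 74.4 CPM (log2FC 7.89 ± 0.16 SE). In 4 of the 12 genes all vehicle libraries had 0 counts, so only a lower bound on the fold can be given, against a floor of 3 counts over the group. The long noncoding RNA PCAT18 was at least 79.1-fold higher, the keratin KRT6B at least 73.0-fold, the noncoding AP006748.1 at least 53.8-fold and the phospholipase PLA2G4E at least 43.2-fold. 4 more had 1 or 2 vehicle counts, and their ratios carry wide 95% counting intervals. These were the acute-phase proteins ORM1 (505-fold, 90.2 to 19973) and ORM2 (286-fold, 78.9 to 2369.5), the amino acid transporter SLC38A4 (471-fold, 84.1 to 18633) and the glucose transporter SLC2A3 (350-fold, 62.5 to 13883). ORM1 and ORM2 are near-identical copies whose reads cannot be assigned with certainty, and the same holds for TRGC1, the source of the prostate transcript TARP, which had a log2FC of 7.72.

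**Figure D2:**
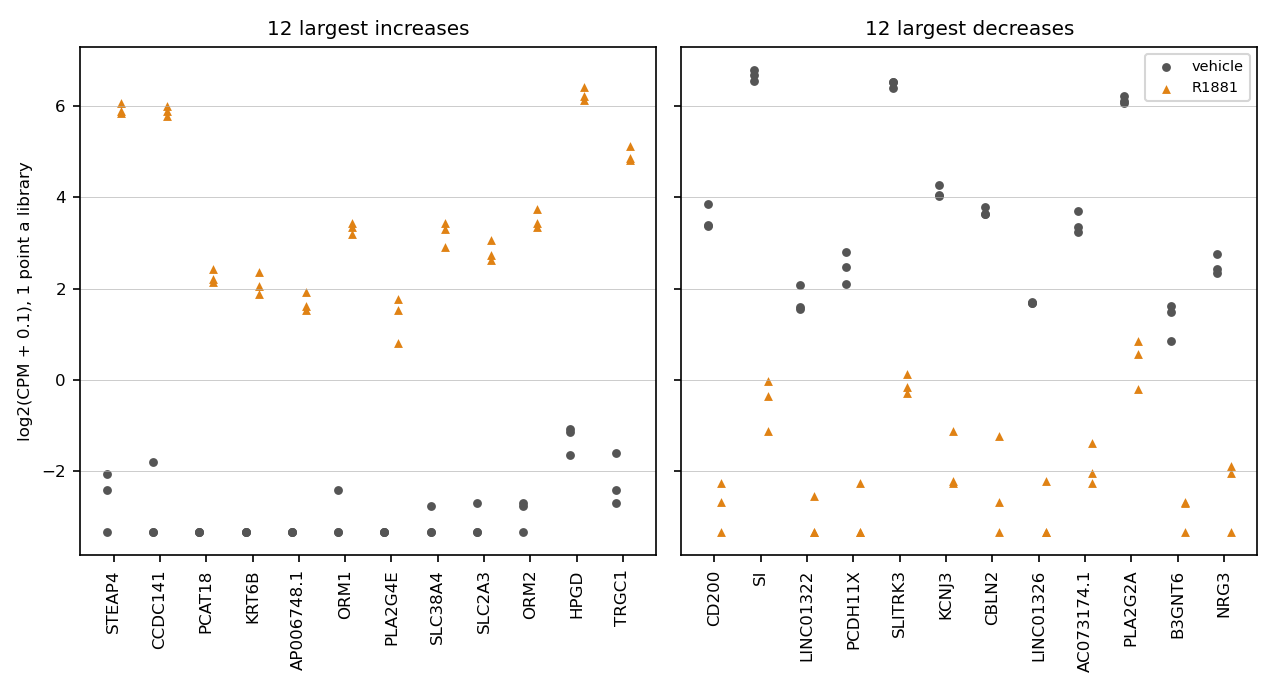
Points are single libraries, grey circles for vehicle and orange triangles for R1881, and the vertical axis is log2(CPM + 0.1). The left panel holds the 12 genes with the largest increases and the right panel the 12 with the largest decreases. The 3 R1881 libraries lie wholly on 1 side of the 3 vehicle libraries in each gene, which the rule for choosing these genes required.

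Of the 12 genes with the largest decreases, 3 were long noncoding RNAs. CD200, an immunoglobulin-family ligand, had 10.4, 14.4 and 10.3 CPM with vehicle and 0.11, 0 and 0.057 CPM with R1881, that is 616 counts against 3 (200-fold lower, 95% counting interval 68.0 to 971). SI, the intestinal sucrase-isomaltase, fell from 102, 110 and 92.5 CPM to 0.878, 0.36 and 0.683 CPM (log2FC -7.24 ± 0.15 SE). SLITRK3, a synaptic adhesion protein, fell from 91.8, 92.4 and 84.2 CPM to 0.987, 0.721 and 0.797 CPM (log2FC -6.71 ± 0.14 SE). These 3 genes were left at under 1 CPM in every R1881 library. PLA2G2A, a secreted phospholipase, fell from 68.6, 66.3 and 73.7 CPM to 0.768, 1.37 and 1.71 CPM. The potassium channel KCNJ3 had a log2FC of -6.52, the synaptic organiser CBLN2 one of -6.43, the noncoding AC073174.1 one of -5.84 and the growth factor NRG3 one of -5.71. LINC01322, LINC01326, PCDH11X and B3GNT6 were left with 1 or 2 counts over the 3 R1881 libraries, at ratios of 169, 77.8, 129 and 64.2 to 1. PCDH11X has a near-identical copy, so its count is uncertain.

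Genes were also ranked by their change in CPM. Among the 8 called genes that gained most CPM were FASN, KLK3, SCD, FKBP5, ELOVL5, ABHD2 and ACSL3. FASN, the fatty acid synthase, stood at 1788, 1376 and 1641 CPM with vehicle and at 7376, 5576 and 6515 CPM with R1881 (log2FC 2.02 ± 0.10 SE). ABHD2, a lipid hydrolase, gained from 504, 506 and 455 CPM to 2046, 2021 and 2159 CPM. The 8 genes that lost most CPM were GRB10, UGT2B15, CPNE3, MANEA, MMP16, DDC, ABCA12 and CAMK2N1. GRB10, an adaptor that binds insulin and IGF receptors, stood at 1114, 1130 and 1036 CPM with vehicle and at 148, 128 and 138 CPM with R1881 (log2FC -2.98 ± 0.07 SE). DDC, the decarboxylase that makes dopamine and serotonin, fell from 492, 477 and 492 CPM to 31.0, 34.3 and 29.6 CPM. CAMK2N1, an inhibitor of CaM kinase II, fell from 471, 407 and 407 CPM to 20.6, 20.2 and 22.3 CPM (log2FC -4.34 ± 0.08 SE). MMP16, a membrane metalloproteinase, and MANEA, an endomannosidase, had log2FC of -2.90 and -2.07, and CPNE3 and ABCA12 lay just past the threshold at -1.07 and -1.10.

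Genes listed as androgen-repressed were mixed. Of 18 tested, 10 were lower and 6 of these called, with a median log2FC of -0.65, but 3 were higher. BCHE, butyrylcholinesterase, fell from 269, 303 and 259 CPM to 6.31, 5.77 and 6.49 CPM (log2FC -5.48 ± 0.10 SE). The opioid receptor OPRK1 had a log2FC of -5.40 and ACKR3, a decoy receptor for CXCL12, one of -3.65. PEG10 had a log2FC of -1.46 at low counts (adjusted p = 0.011), which missed the call in 1 of 9 fits that left out a library. MYC (log2FC -0.12) and BCL2 (-0.36) did not pass the test. The 3 higher genes were UGT2B28, UGT2B11 and UGT2B10.

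These belong to the UGT2B family, which conjugates androgens with glucuronic acid and so inactivates them. Its members moved in opposite directions within 1 cluster on chromosome 4. UGT2B15, the second largest loser of CPM, fell from 1149, 1117 and 1082 CPM to 405, 475 and 403 CPM (log2FC -1.38 ± 0.07 SE), and UGT2B17 fell from 608, 602 and 623 CPM to 304, 362 and 323 CPM. UGT2B11 rose from 40.0, 47.1 and 47.7 CPM to 873, 1117 and 925 CPM (log2FC 4.43 ± 0.10 SE), and UGT2B28 from 2.49, 3.29 and 3.12 CPM to 200, 265 and 201 CPM (log2FC 6.18 ± 0.13 SE). Per length, UGT2B11 went from a mean of 69.7 to 1379.7 TPM (counts scaled by gene length) while UGT2B17 went from 1129 to 559 TPM, so that UGT2B11 was the lower with vehicle and the higher with R1881. The members are closely alike in sequence and some annotated genes overlap, which makes the split of reads among them uncertain. Among other steroid enzymes, HSD17B11 (log2FC 2.11), the 5α-reductase SRD5A1 (0.71) and the side-chain cleavage enzyme CYP11A1 (3.84, at 0.11 to 0.445 CPM with vehicle) were higher. In all, 12 of 19 tested steroid-metabolising genes were higher and 2 lower.

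Pioneer factors, cofactors and chromatin enzymes of the hormone response changed less. FOXA1 had 522, 462 and 465 CPM with vehicle and 454, 427 and 427 CPM with R1881, and KDM1A, the histone demethylase LSD1, had 115, 119 and 120 CPM against 104, 106 and 112 CPM. Neither passed the test (adjusted p = 0.056 and 0.079), although the libraries of the groups did not overlap, and both passed when protein-coding genes alone were fitted. Without vehicle replicate 1, FOXA1 had a log2FC of -0.08 in place of -0.15 (adjusted p = 0.321) and KDM1A one of -0.15 in place of -0.13 (adjusted p = 0.111). KDM7A, a demethylase of repressive histone marks, was higher with R1881, at 55.2, 64.0 and 58.6 CPM against 40.2, 43.4 and 36.9 CPM (log2FC 0.56 ± 0.09 SE, adjusted p = 4.9e-05). Of 25 transcriptional cofactors and pioneer factors tested, 5 were higher and 11 lower, with a median log2FC of -0.17. The SUMO ligase PIAS1 (0.96), the pioneer-like factor GRHL2 (0.84) and the co-repressor NCOR1 (0.58) were higher, and the co-activators NCOA1 (-0.64), NCOA3 (-0.53) and CREBBP (-0.62) were lower.

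Among other nuclear receptors, 5 of 24 were higher and 12 lower, against 23.5% and 23.2% of all genes tested. The progesterone receptor PGR fell from 3.20, 3.57 and 3.12 CPM to 0.274, 0.144 and 0.114 CPM (log2FC -4.14 ± 0.42 SE). The immediate early receptor NR4A1 was the only one called higher (log2FC 1.30), and the retinoic acid receptors RARG (-1.17) and RARA (-0.92) were lower.

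Most genes of lipid synthesis were higher. Of 31 genes of cholesterol synthesis and uptake, 26 were higher, 13 of them called, and 3 lower, with a median log2FC of 0.93. FDFT1, squalene synthase, rose from 249, 249 and 250 CPM to 935, 1015 and 1058 CPM. The sterol sensor SCAP (1.09) was just past the threshold and missed the call in 1 of 9 fits that left out a library. HMGCS1 (1.77) and IDI1 (1.64), enzymes of the mevalonate pathway, and INSIG1 (1.81), which retains the sterol sensor in the ER, were called higher. The 3 lower genes were INSIG2, ABCG1 and ABCA1, the last 2 being pumps that export cholesterol. ABCA1 fell from 12.9, 11.9 and 10.8 CPM to 0.439, 0.144 and 0.512 CPM (log2FC -4.93 ± 0.33 SE) and ABCG1 had a log2FC of -1.19. The transcription factor SREBF2 was higher (0.34, adjusted p = 0.000535), whereas SREBF1, with 326, 253 and 299 CPM against 343, 267 and 292 CPM, did not pass the test (log2FC 0.04).

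In fatty acid and triglyceride synthesis 18 of 31 genes were higher, 14 of them called, and 6 lower. The elongases ELOVL7 (log2FC 4.56) and ELOVL5 (2.82), the acyl-CoA ligase ACSL3 (3.23) and FASN (2.02) led the list. ELOVL7 rose from 9.26, 9.32 and 6.41 CPM to 197, 193 and 194 CPM, and ACSL3 from 171, 180 and 171 CPM to 1537, 1759 and 1608 CPM. SCD, the stearoyl-CoA desaturase, rose from 1084, 1100 and 1060 CPM to 3320, 3439 and 3706 CPM, while its paralogue SCD5 fell from 6.76, 5.61 and 6.47 CPM to 1.32, 1.87 and 2.05 CPM. MLXIPL, a glucose-sensing transcription factor, was also lower (log2FC -1.16).

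**Figure D3:**
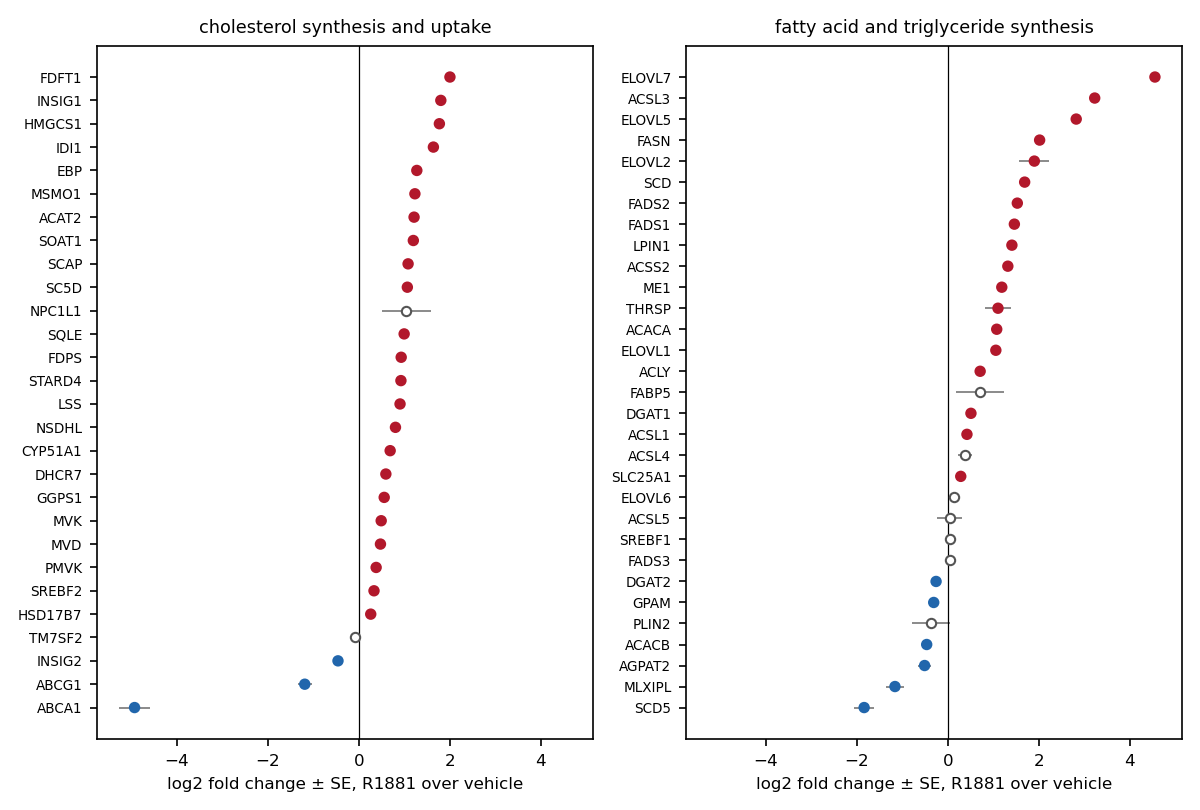
Each point is the log2FC with R1881 over vehicle of 1 gene, with its standard error as a bar; filled points passed an adjusted p of 0.05 and open points did not. Cholesterol genes are on the left and fatty acid and triglyceride genes on the right. ABCA1 at -4.93 and ELOVL7 at 4.56 are the extremes.

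More genes of energy metabolism were higher than lower, by smaller factors. Of 31 fatty acid oxidation genes 20 were higher and 4 lower, led by the acyl-CoA dehydrogenase ACADL at 0.045 against 1.35 CPM (means) and with the peroxisomal isomerase ECI2 at a log2FC of 1.89 and AMACR, a racemase used as a prostate cancer marker, at 0.79. The carnitine transferase CPT1A did not pass the test (-0.11). In glucose uptake and glycolysis 19 of 31 were higher, among them the transporter SLC2A12, which rose from a mean of 16.6 to 72.1 CPM, the phosphofructokinase regulator PFKFB2 (1.28) and HK2 (0.81). In the TCA cycle, citrate and zinc list 22 of 29 were higher and 1 lower, led by ANKH, which exports citrate and pyrophosphate (1.68), GLUD1 (1.56) and IDH1 (1.23). Of 44 nuclear-encoded subunits of oxidative phosphorylation 27 were higher and none lower, yet none was called and the median log2FC was 0.25. The 13 mitochondrially encoded genes had a median of 0.11, with 4 higher.

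Most genes of the secretory pathway were higher. Of 43 genes of transport from the endoplasmic reticulum (ER) to the Golgi, 38 were higher and 2 lower, with a median log2FC of 0.47. RAB27A, a GTPase of secretory vesicles, rose from 4.72, 5.71 and 6.68 CPM to 21.6, 26.0 and 24.1 CPM, while its effector SYTL2 had a log2FC of -1.31. Of 34 ER chaperones and genes of the unfolded protein response, 27 were higher and 4 lower, with a median of 0.53. HSPA5, the main ER chaperone BiP, rose from 753, 802 and 790 CPM to 1237, 1380 and 1302 CPM (log2FC 0.74 ± 0.06 SE). The stress sensor ERN1 (1.36) and the prostate ER factor CREB3L4 (1.27) were called higher, whereas the 4 lower genes were ATF4 (-0.27), DDIT3 (-0.41), CHAC1 (-0.52) and ASNS (-0.24), all of the ATF4 arm. In glycosylation 21 of 36 genes were higher and 7 lower. ST6GALNAC1, which makes the sialyl-Tn antigen, rose from 1.25, 1.21 and 1.42 CPM to 122, 117 and 111 CPM (log2FC 6.49 ± 0.10 SE), and UAP1 and PGM3 of the hexosamine pathway had log2FC of 2.61 and 1.95.

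Prostate cells make large amounts of polyamines. Spermine synthase SMS rose from 99.2, 113 and 113 CPM to 700, 786 and 726 CPM (log2FC 2.76 ± 0.07 SE). ODC1, the first enzyme of the pathway, rose from 494, 478 and 501 CPM to 1050, 1240 and 1132 CPM, and the catabolic enzyme SAT1 had a log2FC of 2.26. Of 20 polyamine genes tested, 8 were higher and 1, AZIN2, lower. Among 22 amino acid transporters 7 were higher and 8 lower, with SLC43A1, a leucine carrier known from prostate, at 1.99 and SLC7A5 at -1.05. In the lysosome and autophagy list 20 of 36 were higher, with the cholesterol transporter NPC1 (1.93) and the autophagy protein WIPI1 (1.84) called.

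Cell cycle genes stood closer to the background. Of 50 DNA replication genes 18 were higher and 4 lower, none was called, and the largest values were those of RRM2 and GINS3 (log2FC 0.52 each). Of 50 mitotic genes 11 were higher and 8 lower. With a trend on gene GC content removed these became 5 and 13, so no direction is given, and leaving out 1 library at a time gave 2 to 7 lower genes. MKI67 had 185, 199 and 187 CPM against 202, 173 and 194 CPM (log2FC -0.01). CENPN, a centromere protein, was the exception, with 39.8, 44.3 and 42.7 CPM against 355, 391 and 393 CPM (log2FC 3.16 ± 0.07 SE). Among regulators of G1, the CDK inhibitors CDKN2B (2.64) and CDKN1C (1.17) were called higher, CDKN1A did not pass the test (0.10), and CCND1 was slightly lower (-0.16).

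Of 25 p53 targets 4 were higher and 12 lower, with a median log2FC of -0.25, while 23.5% of all genes tested were higher and 23.2% lower. SESN1, a stress-induced inhibitor of mTORC1, fell from 212, 237 and 222 CPM to 76.5, 82.7 and 77.8 CPM, and TP53INP1, an autophagy and apoptosis factor, fell from 392, 381 and 343 CPM to 122, 128 and 123 CPM. GDF15, a secreted stress cytokine, rose from 228, 153 and 188 CPM to 448, 446 and 525 CPM. In the BCL2 family the pro-apoptotic HRK (-2.05) and BMF (-1.55) were called lower and the anti-apoptotic BCL2L1 was higher (0.56), while BNIP3 (0.74) and BAK1 (0.37), which promote cell death, were higher too. Of 19 members 5 were higher and 6 lower, and 3 higher without vehicle replicate 1.

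Of 32 interferon-stimulated genes tested 15 were higher and 2 lower, with a median log2FC of 0.34. Most stood at low levels. The synthetase OAS1 had 0.267, 0.835 and 0.931 CPM with vehicle and 2.85, 3.10 and 3.93 CPM with R1881, and the ISG15 ligase HERC5 had 2.67, 3.15 and 2.68 CPM against 11.2, 10.5 and 11.4 CPM. MX1 (0.03), IFI6 (0.07) and IRF9 (-0.02) did not pass the test. The chemokine CXCL10 had 2 counts over the vehicle libraries and 369 with R1881 (190-fold, 95% counting interval 52.1 to 1572). In antigen presentation B2M rose from 153, 164 and 156 CPM to 412, 511 and 452 CPM, whereas CD274, which encodes PD-L1, was lower (-1.71). Among cytokine and NF-kB genes 12 of 21 were higher and 6 lower. The feedback inhibitors TNFAIP3 (2.13) and NFKBIA (1.22) and the receptor CXCR4 (2.05) were called higher, and NFKB1 was called lower (-1.05).

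Signalling pathways moved gene by gene, beside 23.5% higher and 23.2% lower among all genes tested. IGF1R, the receptor for insulin-like growth factors, rose from 18.8, 19.4 and 19.2 CPM to 161, 157 and 152 CPM (log2FC 3.03 ± 0.07 SE), opposite to the adaptors GRB10 (above) and GRB14 (-1.28). IGFBP3 was higher (1.59), and of 20 genes of the IGF axis 7 were higher and 6 lower. In EGF, FGF and HGF signalling 11 of 24 were higher and 5 lower. The feedback inhibitors ERRFI1 (2.63), SPRY4 (3.08) and DUSP4 (1.75) were called higher, as was FGFR3 (1.54), and the ligands HBEGF (-1.69) and TGFA (-1.20) were called lower. In WNT signalling 8 of 31 were higher and 11 lower, with the receptor FZD5 at 1.78 and ROR2 (-2.63), RNF43 (-1.34), LEF1 (-1.32) and WNT2B (-1.29) lower. LEF1 missed the call in 2 of 9 fits that left out a library.

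In the BMP and TGF-beta list 10 genes were higher and 10 lower of 32 (all genes tested: 23.5% and 23.2%). The type I receptor BMPR1B rose from 6.41, 8.58 and 5.75 CPM to 82.7, 84.3 and 87.5 CPM (log2FC 3.59 ± 0.11 SE) and BMPR1A had a log2FC of 1.47. PMEPA1, an inhibitor of TGF-beta signalling, rose from 24.0, 21.8 and 24.1 CPM to 226, 216 and 203 CPM, and the inhibin subunit INHBB was lower (-2.75). In Notch signalling HES6, a cofactor of the pathway, rose from 48.0, 32.1 and 41.9 CPM to 310, 227 and 291 CPM, and NOTCH3 (-1.03) and DLL1 (-0.83) were lower. Of 17 YAP and TEAD genes 9 were lower and 2 higher. One of the higher genes was WWTR1, a paralogue of YAP1, at 0.356, 1.25 and 1.15 CPM against 9.98, 12.3 and 11.5 CPM.

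Keratins, the intermediate filaments of epithelia, were induced as a family. Of 11 tested, 10 were higher and 9 called, with a median log2FC of 3.05. The luminal keratins were abundant: KRT8 rose from 397, 406 and 456 CPM to 1300, 1310 and 1265 CPM and KRT18 from 210, 238 and 255 CPM to 687, 652 and 648 CPM. KRT19 rose from 2.31, 1.99 and 2.25 CPM to 17.2, 17.4 and 19.4 CPM. The basal and hyperproliferative keratins appeared from nothing or nearly so and remained rare. KRT15 had 0 counts with vehicle and 1.87, 2.09 and 1.94 CPM with R1881 (at least 33.2-fold), KRT6A was at least 14.7-fold higher, and KRT14 went from 3 to 58 counts (19.9-fold, 95% counting interval 6.47 to 99.2). The other basal markers did not move with them: KRT5, TP63, KRT17 and NGFR were at 0 to 7 counts in every library, ITGB4 was lower (-1.82) and DST did not pass the test (0.15). The summed level of the tested basal markers was 28.6 to 31.7 CPM with vehicle and 32.9 to 36.0 CPM with R1881. The KRT6 genes are near-identical, so their separate values are uncertain.

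More axon guidance genes were lower than higher. Of 40 ephrin, Eph, semaphorin and plexin genes, 21 were lower and 4 higher, with a median log2FC of -0.39. The receptor EPHA3 fell from 7.92, 10.3 and 8.88 CPM to 1.37, 1.44 and 1.20 CPM, and SEMA6A fell from 92.2, 95.5 and 92.3 CPM to 22.1, 20.7 and 21.2 CPM. The netrin receptor UNC5A (3.02) and PLXNA2 (1.36) were higher. Fibronectin FN1 fell from 491, 512 and 460 CPM to 161, 171 and 145 CPM, and COL5A1 had a log2FC of -2.29. The transcription factors SNAI2, from a mean of 0.479 to 12.2 CPM, and TWIST1, from 5.61, 3.66 and 3.12 CPM to 43.8, 44.0 and 39.2 CPM, both best known as drivers of mesenchymal change, were higher. E-cadherin CDH1 had 658, 670 and 661 CPM against 669, 685 and 647 CPM (log2FC 0.01). Of 24 epithelial and mesenchymal genes tested, 5 were higher, 5 lower and 14 did not pass, with a median log2FC of -0.004. Among all genes tested, 23.5% were higher and 23.2% lower. Of 27 integrin and laminin genes 7 were higher and 8 lower, led by LAMA1 (3.88) and ITGB4 (-1.82).

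No HOX gene was higher: of 21 tested, 7 were lower, 6 of them called, and 14 did not pass, with a median log2FC of -0.78. Of all genes tested, 23.2% were lower. Counted by symbol, antisense genes included, 6 of 7 HOXC genes were called lower, against 2 of 9 HOXA and 0 of 5 HOXB genes. HOXC9 fell from 5.52, 4.31 and 7.01 CPM to 1.32, 1.66 and 1.54 CPM and HOXC4 from 11.9, 10.5 and 11.8 CPM to 3.46, 3.39 and 2.62 CPM. HOXB13, the prostate HOX factor, was far more abundant and moved little (log2FC -0.21). HOXA10 and HOXC5 were at the threshold and were called in 3 and 4 of 9 fits that left out a library.

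Chromatin regulators moved by small amounts. Of 22 histone demethylases tested 6 were higher and 10 lower and none was called. KDM7A and its relative PHF8 (0.60) were the 2 highest, and the H3K27 demethylases KDM6B (-0.93) and KDM6A (-0.80) the 2 lowest. KDM6A fell from 512, 550 and 491 CPM to 294, 297 and 302 CPM. In the Polycomb and DNA methylation list 15 of 26 genes were lower and 3 higher, with TET2 at -0.96, DNMT3A at -0.70 and EZH2 at -0.21. The heat shock and receptor chaperones other than FKBP5 changed little: 16 of 29 were higher, but FKBP5 alone was called.

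Genes grouped by the letters of their symbols before the first digit gave further families, some of whose members are also on the lists above. The solute carriers, a large group, had most called genes, 24 higher and 22 lower of 258 (9.30% and 8.53%). Their median log2FC was -0.01, and the shares called among all genes tested were 5.68% and 6.62%. The histone genes (HIST) had 11 called higher and 1 lower of 37. HIST2H2BE rose from 71.8, 77.3 and 84.6 CPM to 201, 199 and 189 CPM and the linker histone HIST1H1C had a log2FC of 1.27. The exception, HIST2H4A, had 9.26 CPM in vehicle replicate 1 and 0.51 and 0.603 CPM in the other vehicle libraries, so its value rests on that library. UGT genes had 8 called higher and 1 lower of 12, with the pseudogenes UGT2B24P, UGT2B25P and UGT2B27P counted among the higher. The protocadherins PCDHB, cell adhesion proteins of neurons, had 9 called lower and none higher of 16, and 14 of 16 passed the test downwards. The 9 include the pseudogenes PCDHB18P and PCDHB19P. PCDHB10 fell from 2.76, 2.04 and 2.25 CPM to 0.494, 0.36 and 0.456 CPM and PCDHB11 had a log2FC of -1.84. The GLYATL symbols, named for acyltransferases that join glycine or glutamine to acyl groups, had 5 called higher of 6. These were GLYATL1, GLYATL1B and the pseudogenes GLYATL1P1, GLYATL1P2 and GLYATL1P4, while GLYATL2 was higher but not called (0.93).

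Several of these lay next to each other. Read along the chromosomes, tested genes that were called in the same direction formed 47 runs of at least 3 neighbours upwards and 46 downwards, which held 342 genes. The longest had 9 genes, from GLYATL1P2 to FAM111B on chromosome 11 (58878302 to 59127410), all higher. Some neighbours overlap, GLYATL pseudogenes resemble their parent genes, and strand was not stated, so reads of such genes cannot be told apart. The deepest repressed run had 7 genes on chromosome 3 (164978898 to 167381346) and held SI, SLITRK3, LINC01322, BCHE, LINC01326, AC069439.2 and ZBBX, spread over 2402 kb. SI, SLITRK3 and BCHE had log2FC of -7.24, -6.71 and -5.48, LINC01322 and LINC01326 were left with 1 and 2 counts, AC069439.2 had 63 counts with vehicle and 0 with R1881 (at least 20.4-fold lower), and ZBBX had -1.95. The gene next but one, SERPINI1, was lower as well (-2.72), while PDCD10 between ZBBX and SERPINI1 was higher (0.36). All 7 were called without vehicle replicate 1. Other runs held TM4SF1 and WWTR1 on chromosome 3 (log2FC 3.44 and 3.48, upwards), HERC6, HERC5 and HERC3 on chromosome 4 (1.29, 1.95 and 3.67, upwards) and ST7 and ASZ1 on chromosome 7 (-2.36 and -4.36, downwards).

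**Figure D4:**
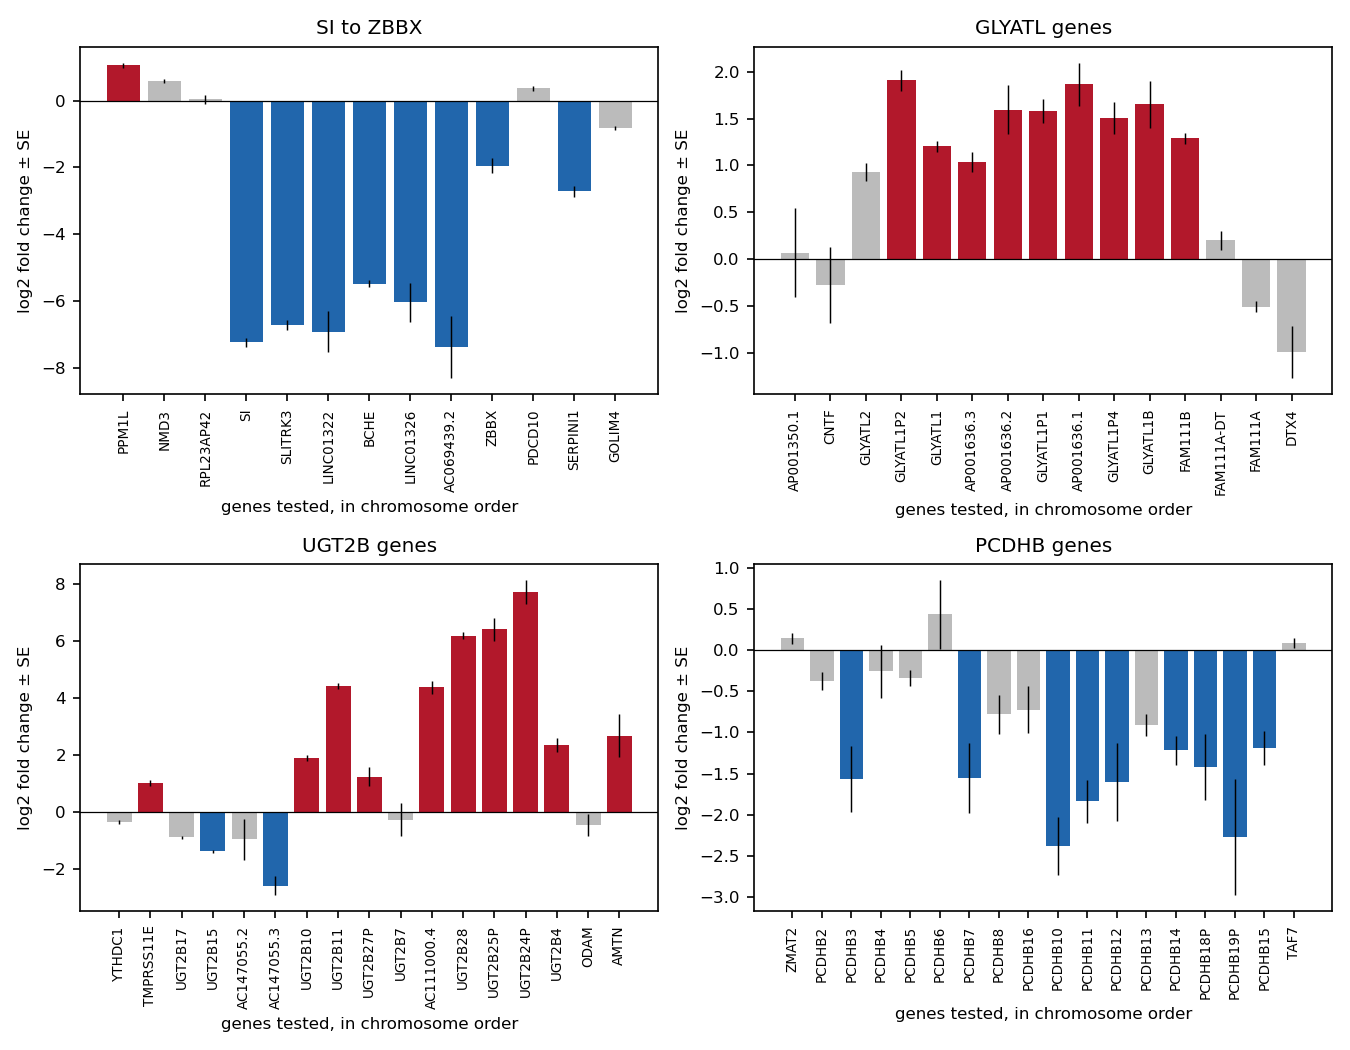
Bars are the fitted log2FC with R1881 over vehicle, with standard errors, of the genes tested in chromosome order around 4 clusters; red bars are called higher, blue bars called lower and grey bars not called. The SI to ZBBX run is lower throughout, the GLYATL run higher throughout, the UGT2B cluster falls on 1 side and rises on the other, and the PCDHB genes are mostly lower.

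Noncoding genes were called lower more often than higher. Of 2528 long noncoding RNA genes 156 were called higher and 270 lower (6.17% and 10.7%), and of 1055 pseudogenes 59 were called higher and 168 lower (5.59% and 15.9%). Among protein-coding genes the counts were 736 and 665 of 13151 (5.60% and 5.06%). The pseudogene calls moved with vehicle replicate 1: without it 90 of the 168 lower pseudogenes (53.6%) were still called, against 111 to 157 when any other library was left out and 582 of 665 lower protein-coding genes (87.5%). Among noncoding RNAs known from prostate cancer, ARLNC1 rose from 0.178, 0.232 and 0.384 CPM to 24.6, 28.3 and 26.5 CPM (log2FC 6.55 ± 0.18 SE). The urine marker PCA3 rose from 0.267, 0.881 and 0.493 CPM to 7.08, 7.86 and 7.80 CPM. DRAIC (-1.21) and CRNDE (-1.62) were called lower, PCGEM1 (-0.17), MALAT1 (0.05) and NEAT1 (-0.05) did not pass the test, and of 23 tested 8 were higher and 8 lower.

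Channels, clotting factors and vascular ligands included some of the steepest single responses. CHRNA2, a nicotinic receptor subunit, rose from 0.534, 0.51 and 0.767 CPM to 70.3, 64.8 and 64.8 CPM (log2FC 6.76 ± 0.14 SE), and the cold receptor TRPM8 from 3.92, 4.22 and 3.89 CPM to 71.6, 82.1 and 74.1 CPM. The calcium-activated potassium channel KCNMA1 was higher (2.60), while KCNQ5 (-1.66) and KCNQ1 (-1.15) were lower. Clotting factor F5 rose from 1.07, 0.928 and 0.657 CPM to 137, 150 and 120 CPM (log2FC 7.28 ± 0.14 SE) and the vessel factor ANGPT2 from 1.25, 1.48 and 1.10 CPM to 73.2, 89.4 and 83.7 CPM. Adrenomedullin ADM was lower (-2.60). Of 16 neuronal and neuroendocrine genes tested 5 were higher and 3 lower, with the secreted VGF (2.49) higher and SYT4 (-1.22) and the neuronal enolase ENO2 (-0.39) lower.

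**Figure D5:**
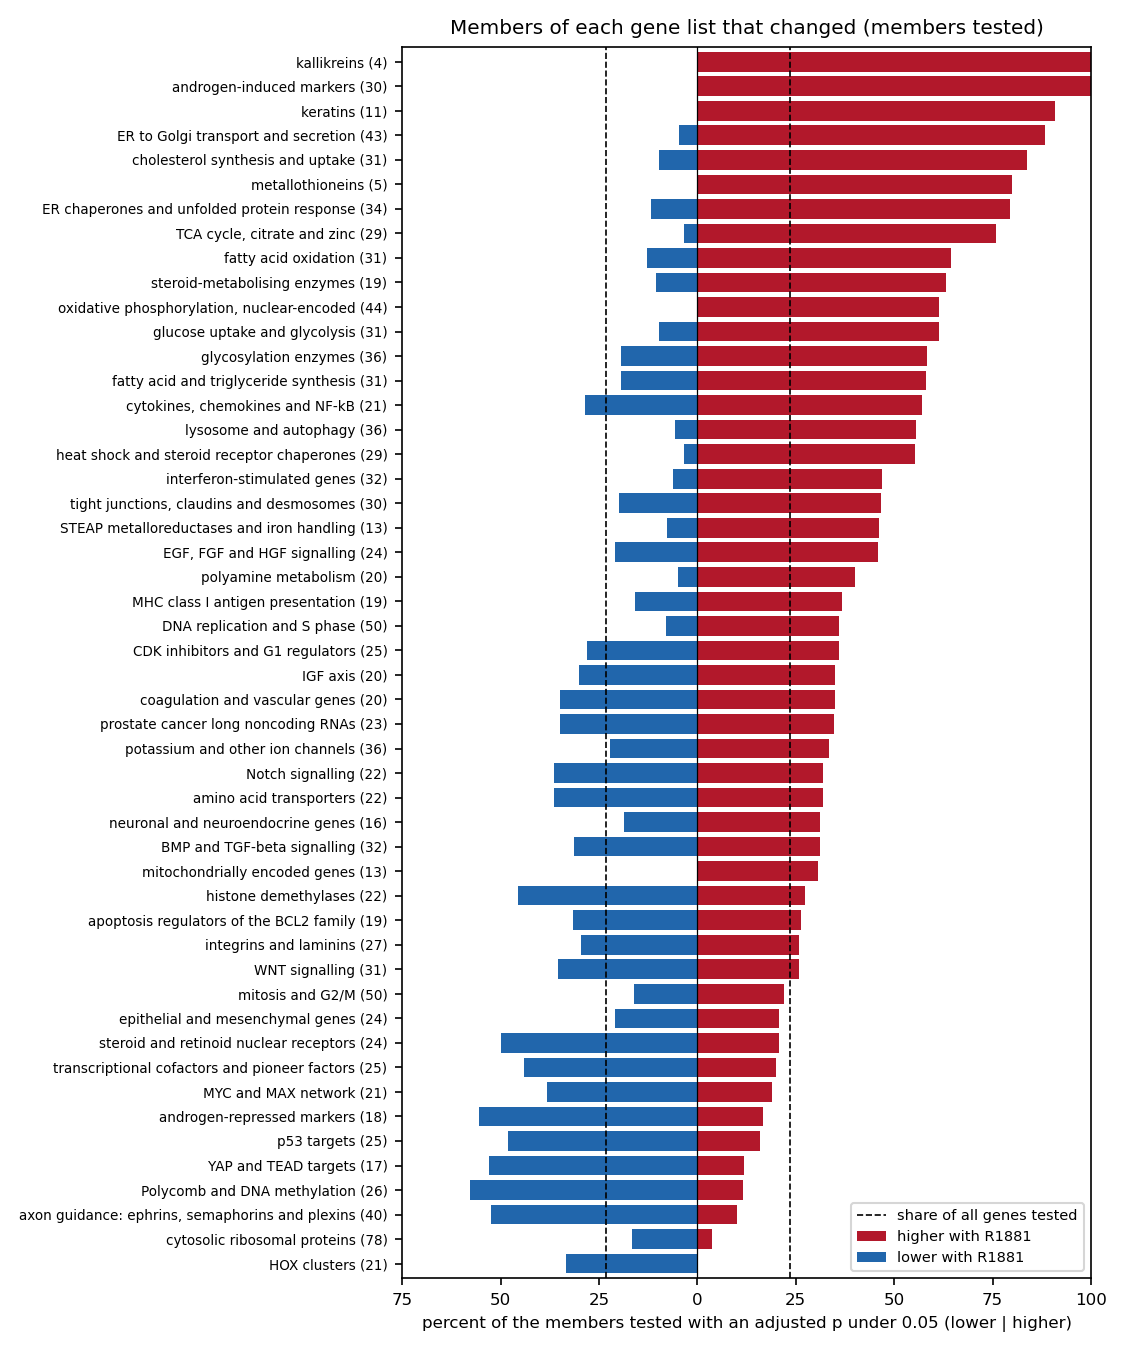
For each gene list, named on the left with the number of members tested, the red bar is the percent of members higher with R1881 and the blue bar the percent lower at an adjusted p under 0.05. Dashed lines mark the shares among all genes tested, 23.5% higher and 23.2% lower. Secretory and sterol lists lie far to the right of the line, and the HOX, axon guidance and Polycomb lists are lower in a larger share than all genes.

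Read against these background shares, the cytosolic ribosomal proteins were below both, with 3 higher and 13 lower of 78. The lower count was 4, 8 and 6 without vehicle replicate 3, R1881 replicate 1 and R1881 replicate 2, but 17 without vehicle replicate 1. The MYC network had 4 higher and 8 lower of 21, tight junctions and desmosomes 14 higher and 6 lower of 30, the iron-handling list 6 higher and 1 lower of 13, and metallothioneins and their regulator 4 higher of 5.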

How the data were processed

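Poly(A)-selected, paired-end RNA Seq of LNCaP cells was used. The authors trimmed the reads with Trim Galore and cutadapt, aligned them to GRCh38 with STAR and counted them per gene with featureCounts (1.5.0-p1), as given in the methods, file headers and submitters' notes; strand handling was not given in the sources used here. The deposited values were raw counts of 60675 genes. Counts came from 9 LNCaP libraries in 3 groups (vehicle, R1881, and R1881 with dual KDM1A and KDM7A knockdown). They were filtered (filterByExpr, minimum count 10), scaled by TMM and fitted with edgeR 4.0.16 (quasi-likelihood F test, Benjamini-Hochberg over 17162 genes). The knockdown libraries entered the filter, the scaling and the estimate of spread, but not the comparison itself. Called means adjusted p under 0.05 and log2FC of at least 1. CPM used TMM-scaled library sizes. The fit was tested on simulated data (105 of 107 genes recovered at a log2FC of 1.5, 93 of 93 at 3, and 3 unchanged genes called). Changes were simulated only in genes with a mean of at least 1 CPM, with counts drawn from the model that the fit assumes. Recovery of rarer genes was therefore not tested. Symbols came from GENCODE 29 and promoters from RefSeq, the first listed start of each gene. The genes named are 8 fixed ones (including KLK3, TMPRSS2, FKBP5, FOXA1, KDM1A and KDM7A), the 12 largest increases and decreases by log2FC among called genes with a symbol, a mean of at least 1 CPM and groups that did not overlap, the 8 largest by CPM, and for each of 54 gene lists the leading members and those named for their role. Members and lists were chosen with earlier results of these data known. Genes outside this rule (neighbouring runs, families by symbol, their examples, EXOC6) were named after their values were seen. The labels do not say that replicates were separate cultures, so p-values measure the spread between these libraries, which may be technical. Intervals and floors cover counting error only. Whether replicate numbers pair the libraries is not settled. Correlations of deviations were 0.153, 0.245 and -0.106 for equal numbers and -0.288 to 0.113 for unequal numbers. Columns of 9 other libraries were not analysed here. Some genes that met the naming rule are not reported here, in text or figures; counts and medians of lists include them.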

Additional observations from a re-analysis of the deposited data

How the results depend on the processing

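Of 2110 called genes (974 higher, 1136 lower), the count stayed within 1.5 times under other scaling, tests and filters, with the exceptions named below. A test against a 2-fold change (glmTreat) called 939 (584 and 355), a filter of at least 10 counts in every library left 1165 (573 and 592), and an adjusted p under 0.05 alone gave 8002 (4025 and 3977). Without any 1 library the total was 2001 to 2183 (974 to 1018 higher, 1009 to 1205 lower), and 1463 of the 2110 genes were called in all 9 such fits. DESeq2 called 1911, RLE size factors 2094, the likelihood ratio test 2211, no filter 2626 and thinning to the smallest library 1820. With the knockdown libraries left out of the filter, scaling and fit, 16644 genes were tested and 1977 called (900 higher, 1077 lower). Protein-coding genes alone, of which 13135 were tested, gave 1417 (709 higher, 708 lower). Here the lower count also moved by more than 1.5 times. With the replicate number as a block, 2084 were called (971 and 1113), but whether the numbers pair the libraries is not settled. A trend on GC content, removed as an alternative chosen after seeing the data, gave 2140 (949 and 1191). Of 837 genes followed across the settings, 275 were called, and 241 were called in all 9 fits that left out a library. A weaker value in at least 1 setting was seen in 637 genes, all of them in the test against a 2-fold change. In 0 genes did a called value change sign, which the threshold for a call makes unlikely from the start. Depth limits genes under about 1 CPM, which made up 525 of the called genes.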
